A study of Mus musculus with 4 samples.

Results

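Dense windows were stretches of 1 Mb in the mouse genome in which trimethylation of lysine 4 of histone H3 (H3K4me3) formed 8 or more separate regions. They numbered 285 of 2376 windows with enough depth to be used, or 12.0%. An H3K4me3 region was a run of 1 kb bins with at least 20 tags of the H3K4me3 ChIP and a ratio of ChIP to scaled input of at least 4, pseudocount 1, merged over gaps of at most 1 bin. Chromosomes 1 to 19 were cut from position 1 into 2473 windows, those with at least 2000 tags of the H3K36me3 input were kept, and a region was counted in the window that held its midpoint. The windows were thus chosen by the number of H3K4me3 regions, and so by the tags of the H3K4me3 ChIP and its input, with a floor on the H3K36me3 input, and all of these are given as description. Which control was used mattered to the choice. With the unamplified input of the H3K36me3 ChIP in place of the amplified one, 155 windows were dense. The tags of the ChIP against trimethylated lysine 36 (H3K36me3) took no part in the choice.

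The series profiled forebrain of CD1 mouse embryos, an outbred strain, at embryonic day 11.5. Forebrains were dissected and pooled, with 36 pieces used per ChIP library, and 1 library was made with an anti-H3K4me3 antibody (Upstate) and 1 with an anti-H3K36me3 antibody (Abcam), each with an input library made without antibody. Both H3K4me3 libraries, ChIP and input, were amplified with a whole-genome amplification (WGA) kit, while both H3K36me3 libraries went unamplified, so the mark and the amplification cannot be told apart. With 1 library in each of the 4 groups, the variation between replicates is unknown. Intervals on ratios of pooled tags cover counting error in these libraries only. Intervals on shares treat regions, flanks, bins or pairs as independent draws. Neighbours share chromatin domains and near flanks share tags, so intervals on shares may be too narrow. Their overlap or separation is given as description. The H3K4me3 ChIP gave 7606197 tags beside 2513019 of WGA input, and H3K36me3 gave 10466543 beside 23110768 of unamplified input. The tag lists hold no gene names, so the labelled tissue was not checked against marker genes. Coordinates are in the build mm8.

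H3K4me3 is placed around the start sites of active and poised genes, most of all at promoters rich in CpG dinucleotides, and a short region of the mark usually stands for a promoter. H3K36me3 is laid down behind elongating RNA polymerase II by the methyltransferase SETD2 and covers the bodies of transcribed genes. Mammalian genes are unevenly spread, with gene-dense stretches beside long gene-poor ones. The genes in the windows were not analysed here.

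The dense windows held 3409 of the 7992 H3K4me3 regions of chromosomes 1 to 19, or 42.7%. Their number of regions ran from 8 to 32, with a median of 11 (interquartile range 9 to 14). At 15 or more regions there were 63 windows, and at 20 or more there were 17. The threshold did not fall in a gap of this distribution. Just outside it, 89 windows held 7 regions and a median of 11000 bp of H3K4me3. Just inside, 54 windows held 8 regions and a median of 13000 bp. At the other end of the scale, 553 kept windows held no region.

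**Figure D1:**
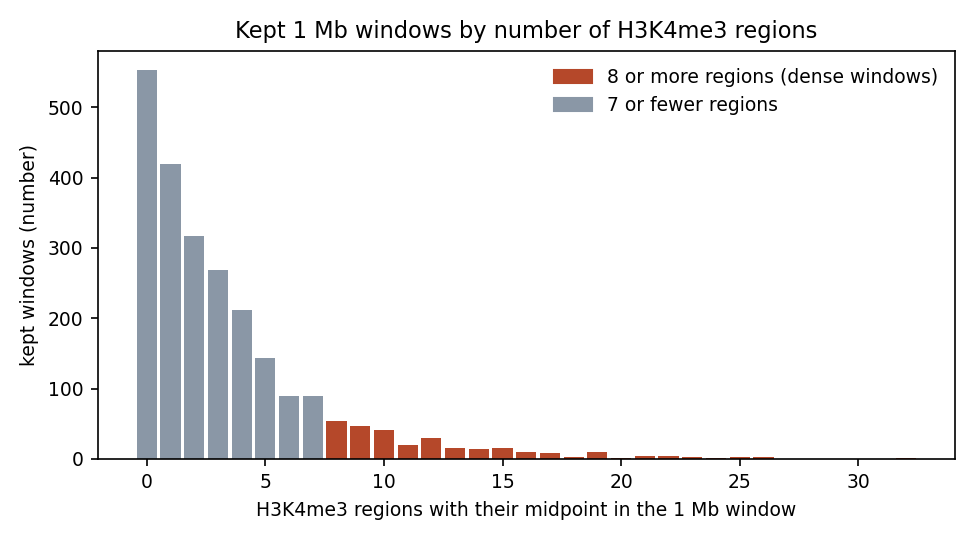
Number of kept 1 Mb windows (vertical axis) by the number of H3K4me3 regions with their midpoint in the window (horizontal axis), with the dense windows in red. The bars fall from 553 windows without a region through 89 windows with 7 and 54 with 8 to 1 window with 32.

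Dense windows lay on every chromosome from 1 to 19, but unevenly. Chromosome 11 had 38 among 119 kept windows, or 31.9%, and these held 69.2% of its H3K4me3 regions. Chromosome 19 followed with 18.6%, then chromosome 17 with 18.5%, chromosome 7 with 17.2% and chromosome 2 with 16.9%. Chromosome 1, with the most kept windows (192), had only 6 dense ones, or 3.13%, which held 12.0% of its regions. Chromosome 18 stood at 5.68% and chromosome 14 at 6.09%.

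Neighbouring windows were often dense together. The 285 windows fell into 168 runs, of which 100 were isolated windows and 30 had 3 or more windows in a row, and 64.9% of dense windows had a dense window directly beside them. The longest runs measured 5 windows, and there were 7 of them. The run with most regions among these lay on chromosome 19 (4000001 to 9000000) and held 80 regions, from 11 to 19 per window. Others of that length lay on chromosome 17 (31000001 to 36000000, 69 regions), chromosome 5 (134000001 to 139000000, 58 regions), chromosome 4 (131000001 to 136000000, 55 regions) and chromosome 2 (28000001 to 33000000, 52 regions). Chromosome 11 had the remaining 2, at 75000001 to 80000000 with 52 regions and at 94000001 to 99000000 with 63.

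Inside a dense window the regions were spread over most of its length. With each window divided into 10 parts of 100 kb, a median of 6 parts held a region (interquartile range 6 to 8, range 3 to 10). The fullest 100 kb of a window held a median of 3 regions and at most 9. From the first to the last region the median distance was 818 kb (interquartile range 681 to 905 kb).

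One by one, the H3K4me3 regions of dense windows resembled those elsewhere. The median region was 1 kb wide and held 61 ChIP tags, both in dense windows and in the other kept windows. The interquartile range of ChIP tags was 35 to 100 in both sets. Regions of 1 kb made up 52.4% in dense windows (exact Clopper-Pearson 95% interval 50.7 to 54.1) and 50.7% elsewhere (49.3 to 52.2). Wide regions were the exception, since regions of at least 3 kb made up 12.7% (11.6 to 13.8) in dense windows and 16.5% (15.4 to 17.6) elsewhere. Regions of at least 5 kb numbered 27 in dense windows and 68 elsewhere. These widths and tags belong to the measure that chose the regions and are given as description.

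The widest H3K4me3 region of a dense window measured 12 kb and lay on chromosome 7 (79372001 to 79384000), in a window with 9 regions. With 927 ChIP and 24 input tags, its ratio was 12.8 (8.52 to 20.02). The next, of 9 kb, lay on chromosome 5 (143079001 to 143088000) with 581 tags against 7, a ratio of 27.4 (13.2 to 68.5). Regions of 7 kb lay on chromosome 11 (23975001 to 23982000, 391 tags), chromosome 13 (23537001 to 23544000, 365 tags) and chromosome 17 (33727001 to 33734000, 342 tags). None of these 5 regions lay in a window with more than 21 regions.

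Although their regions held a larger part of the H3K4me3 tags, dense windows as a whole did not stand above input more than others. Regions took a median of 21.2% of a dense window's H3K4me3 ChIP tags (range 11.7% to 43.8%), against 4.11% in the other kept windows. Over all tags of the window the pooled ratio of H3K4me3 ChIP to WGA input was 0.969 (0.966 to 0.973) in dense windows and 0.997 (0.995 to 0.999) elsewhere. Outside the regions it was 0.758 (0.755 to 0.761) and 0.941 (0.940 to 0.943). ChIP tags outside regions were slightly more frequent in dense windows, with a median of 3.24 per kb against 2.86, but the WGA input was higher by more. Its median was 1429 tags per dense window (range 296 to 2255) and 964 per other kept window (range 62 to 1837).

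The unamplified input differed in the same direction and more widely. It held a median of 15839 tags per dense window (interquartile range 12520 to 18925) and 7581 per other kept window (4627 to 11553), and the interquartile ranges did not overlap. The windows with 7 regions, just outside the threshold, had a median of 13503. Over all tags, dense windows held 20.1% of the unamplified input tags of kept windows and 16.2% of the WGA input tags, in 12.0% of the windows. Input depth thus moved with the number of regions, and its part in the results below was not tested beyond the comparison within classes of depth given with them.

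H3K36me3 was higher in dense windows than in the other kept windows. The 285 dense windows held 36.3% of the H3K36me3 ChIP tags of all kept windows. Their pooled ratio of H3K36me3 ChIP to input, scaled by library totals, was 1.82 (1.82 to 1.82), against 0.806 (0.805 to 0.807) in the other kept windows and 0.282 (0.281 to 0.283) in windows without an H3K4me3 region. The pooled ratio of dense windows was thus 2.26 times that of the other kept windows. A ratio of 1 is the level of the library totals and not of background. In background bins, those with few tags, ChIP over input was 0.241 times the factor from library totals. Over single windows the median was 1.79 (interquartile range 1.45 to 2.11, range 0.308 to 3.47) in dense windows and 0.606 (0.275 to 0.967, range 0.0645 to 2.65) in the others. A ratio of at least 1.5 was reached by 208 dense windows, or 73.0%, where 13.4% of all kept windows reached it. Windows are not replicates, so no test was made over them, and the comparison is between 2 libraries.

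The H3K36me3 ratio was ordered by the number of H3K4me3 regions, above the threshold as well as below it. The pooled ratio was 0.711 in windows with 1 to 3 regions and 1.16 in those with 4 to 7. Within the dense windows it was 1.57 (1.56 to 1.57) in 101 windows with 8 to 9 regions, 1.79 (1.78 to 1.79) in 121 windows with 10 to 14 and 2.21 (2.21 to 2.22) in 63 windows with 15 or more. Across the 285 dense windows, Spearman's rho between the number of regions and the H3K36me3 ratio was 0.501 and Pearson's r was 0.457. These windows share their libraries, and neighbours share chromatin domains, so the values describe the pattern only. The unamplified input had a rho of 0.231 with the number of regions and of 0.0237 with the H3K36me3 ratio across the same windows. Across all 2376 kept windows these values were 0.700 and 0.676, and that between the number of regions and the H3K36me3 ratio was 0.860.

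**Figure D2:**
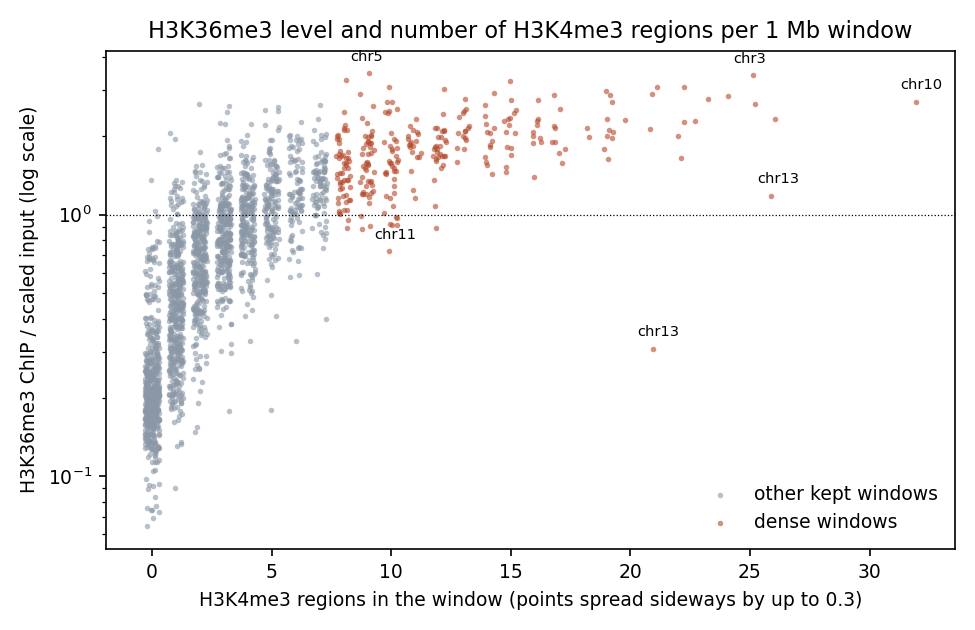
Ratio of H3K36me3 ChIP to scaled input (vertical axis, log scale) against the number of H3K4me3 regions (horizontal axis), 1 point per kept 1 Mb window, with dense windows in red and some named windows labelled by chromosome. Median ratios run from 0.203 in windows without a region to 2.14 in windows with 15 or more, and a chromosome 13 window with 21 regions stands far below the others at 0.308.

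Within classes of input depth the median H3K36me3 ratio was higher in dense windows in each class that held any. Depth still varied within a class, and the WGA input was not grouped. Kept windows were divided into 10 classes of equal size by their tags of the unamplified input. In the deepest class (17055 to 38006 tags) 118 dense windows had a median H3K36me3 ratio of 1.83, and 120 other windows had 1.02. In the next class (13844 to 17052 tags) the medians were 1.78 over 72 dense windows and 0.921 over 165 others. In the fifth class (6926 to 8444 tags) they were 1.95 over 12 and 0.717 over 225. The shallowest class held no dense window, and the next 3 classes held 2, 2 and 3. With the other windows weighted to the depth of the dense ones, the ratio between the sets was 1.85 in place of 2.26.

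On each of the 19 chromosomes the pooled H3K36me3 ratio of dense windows exceeded that of the other kept windows. The factor between them was lowest on chromosome 4, at 1.75 (1.57 against 0.897), and highest on chromosome 3, at 2.91 (2.02 against 0.695). Chromosome 11, which had most dense windows, did not have the highest ratio in them, at 1.67 (1.67 to 1.68). The highest pooled ratios of dense windows were found on chromosome 10, at 2.25 (2.24 to 2.27) over 9 windows, and chromosome 5, at 2.20 (2.19 to 2.21) over 24. The lowest was 1.43 (1.41 to 1.44) over the 6 windows of chromosome 1.

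**Figure D3:**
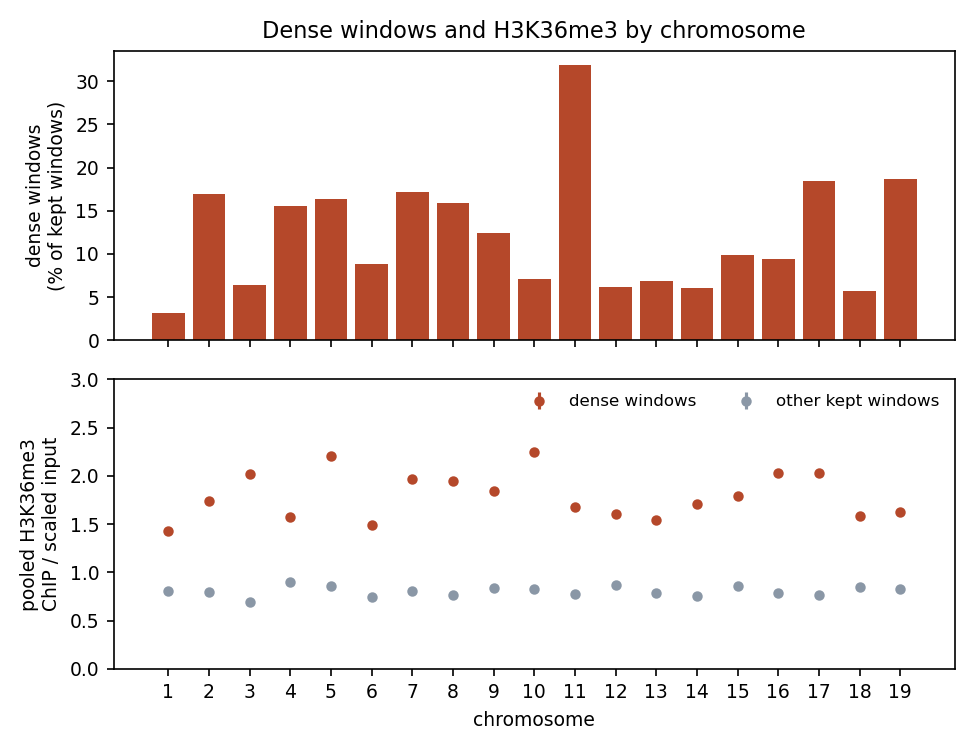
Dense windows as a percentage of kept windows (upper panel) and pooled ratio of H3K36me3 ChIP to scaled input (lower panel) for chromosomes 1 to 19, with dense windows in red, other kept windows in grey and bars for exact 95% counting intervals, which are smaller than the points. Chromosome 11 stands highest in the upper panel at 31.9%, and every red point lies above every grey one.

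H3K36me3 covered more of a dense window. H3K36me3 regions were runs of 5 kb bins called by a one-sided exact binomial test of ChIP against input tags, at an adjusted p under 0.05 over all tested bins and a ratio of at least 1.5. They covered 31.9% of the length of dense windows on average (median 32%, range 2% to 58.5%) and 8.89% of the others (median 7%). Of 55413 tested bins in dense windows 30.8% were called (30.4 to 31.2), where 11.4% of all tested bins of the genome were called, and in the other kept windows the share was 8.96% (8.87 to 9.05). Dense windows held 32.8% of all H3K36me3 length on these chromosomes. The cover depended on how the input was scaled. With scaling on background bins it was 50.0% in dense windows and 21% in the others.

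The level inside H3K36me3 regions is bounded by the ratio and the test that called them, so it cannot be weighed against their cover. The pooled ratio inside them was 4.66 (4.65 to 4.67) in dense windows and 4.06 (4.05 to 4.07) elsewhere. Outside them it was 0.365 (0.364 to 0.366) and 0.316 (0.315 to 0.316). A dense window held a median of 11 H3K36me3 regions (range 2 to 25), against 3 in other kept windows. These were wider as well as more numerous, with a median of 20 kb against 15 kb, and 55.9% (54.1 to 57.6) reached 20 kb against 44.2% (43.1 to 45.4) elsewhere. Regions of at least 100 kb were rare in both sets, at 93 of 3105 (2.42% to 3.66%) and 187 of 7573 (2.13% to 2.84%), intervals that overlap.

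Inside the H3K4me3 regions themselves the pooled H3K36me3 ratio was below that of the whole windows, in dense windows and elsewhere. Pooled over the regions of dense windows it was 0.475 (0.470 to 0.481), against 0.420 (0.415 to 0.425) over those elsewhere. The H3K36me3 ChIP held 5.86 tags per kb in these regions and 13.1 per kb over the dense windows as a whole. The unamplified input moved the other way, with 27.2 tags per kb in the regions and 15.9 per kb over the windows, and it is the denominator of the ratio. In the WGA input, which entered the choice of the regions, the values were 0.833 and 1.38 per kb. In the other kept windows the H3K36me3 ChIP was higher in the regions than over the windows, at 4.53 and 3.14 tags per kb. The unamplified input there held 23.8 and 8.60 per kb. These window values also cover the 553 kept windows without a region, which add nothing to the values in regions. The densities in regions and over windows there thus come from unlike sets of windows. What lowered the ratio in the regions was not tested.

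H3K36me3 lay on both sides of an H3K4me3 region more often in dense windows. Each flank was the stretch from 1 to 11 kb beyond an edge of the region, tested like the bins. Of 6818 flanks in dense windows 55.8% were called, where 47.9% of the tested flanks of all regions were called. Both flanks were called at 919 regions of dense windows, or 27.0% (25.5 to 28.5), and at 12.9% (11.99 to 13.95) of regions elsewhere. Neither flank was called at 15.4% (14.2 to 16.6) and 29.0% (27.7 to 30.4). The share with exactly 1 called flank was nearly the same, at 57.7% (56.0 to 59.3) and 58.0% (56.6 to 59.5). That likeness depended on the scaling of the input and on the length of the flank, and the order of the sets turned between these settings. With the input scaled on background bins, exactly 1 flank was called at 46.6% in dense windows and 60.0% elsewhere. With flanks from 1 to 6 kb it was called at 59.6% in dense windows and 55.8% elsewhere. The share with both flanks called was higher in dense windows in each case, at 50.7% against 34.5% with background scaling and 21.1% against 9.28% with the shorter flanks.

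The share with both flanks called went up with the number of regions in the window. It was 9.25% (7.97 to 10.7) in windows with 1 to 3 regions and 15.5% (14.1 to 16.9) in windows with 4 to 7. In dense windows it was 19.5% (16.9 to 22.4) at 8 to 9 regions, 25.8% (23.5 to 28.2) at 10 to 14 and 33.8% (31.1 to 36.6) at 15 or more. Where exactly 1 flank was called in dense windows, it was the flank of lower coordinate at 954 regions and that of higher coordinate at 1012.

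Regions with a near neighbour had both flanks called most often. Among regions of dense windows with another H3K4me3 region within 12 kb the share was 38.6% (35.2 to 42.0), and at 12 to under 30 kb it was 33.5% (30.7 to 36.5). At 30 to under 100 kb it was 17.9% (15.8 to 20.2), and at 100 kb or more it was 9.12% (6.10 to 12.99). Regions of the other kept windows stood at 27.8% (23.4 to 32.5) within 12 kb and 27.7% (23.9 to 31.8) at 12 to under 30 kb. At 30 to under 100 kb they stood at 14.8% (13.1 to 16.7), and at 100 kb or more at 5.16% (4.26 to 6.19). The intervals overlap those of dense windows in each class except that within 12 kb. Within each distance class the sets differed by fewer percentage points than over all regions. Of regions elsewhere 46.1% were 100 kb or more from a neighbour, and of those in dense windows 8.68%. The part of this spacing in the difference over all regions was not tested. A flank can reach across a neighbour that is closer than 11 kb, so flanks of near neighbours share tags. The distance classes were chosen after the data were seen.

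Away from the region, H3K36me3 differed most on the side where it was not called. Around regions of dense windows with exactly 1 called flank, the ratio was 3.30 (3.27 to 3.33) in the first 2 kb on the called side, 5.31 (5.26 to 5.35) from 4 to 6 kb, 3.38 (3.34 to 3.41) from 20 to 22 kb and 2.45 (2.42 to 2.47) from 48 to 50 kb. Regions elsewhere followed a similar course, with 4.76 (4.72 to 4.81) from 4 to 6 kb, 3.30 (3.27 to 3.33) from 20 to 22 kb and 1.95 (1.93 to 1.98) from 48 to 50 kb. On the other side the ratio was 0.374 (0.366 to 0.382) from 4 to 6 kb in dense windows and 0.336 (0.328 to 0.343) elsewhere, a stretch in which the class itself asks for a low value. Beyond that stretch it was 1.75 (1.73 to 1.77) from 20 to 22 kb in dense windows and 0.935 (0.922 to 0.949) elsewhere, and from 48 to 50 kb it was 1.92 (1.90 to 1.94) and 1.17 (1.15 to 1.19).

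**Figure D4:**
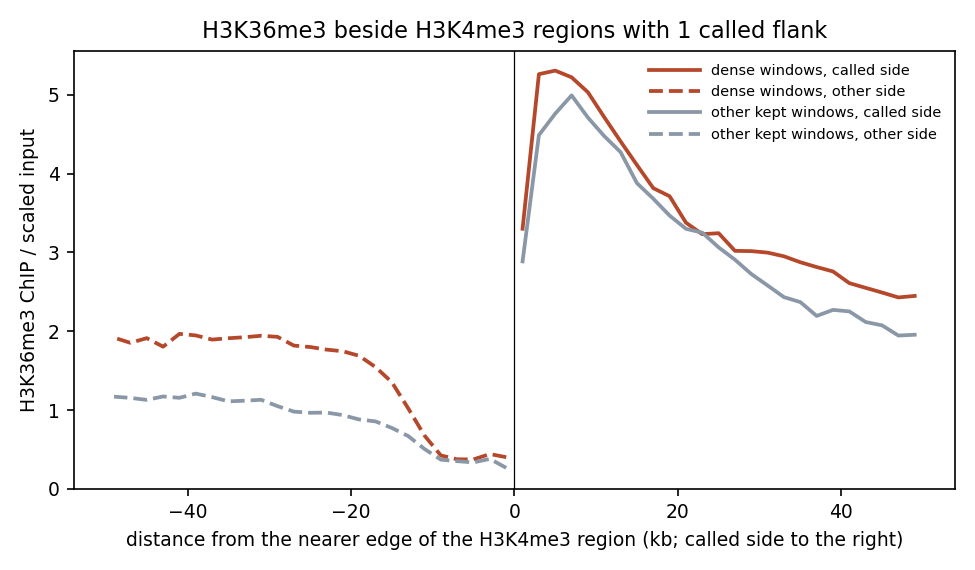
Ratio of H3K36me3 ChIP to scaled input (vertical axis) in steps of 2 kb by distance from the edge of H3K4me3 regions with exactly 1 called flank (horizontal axis, kb, called side to the right), for 1966 regions of dense windows in red and 2658 of other kept windows in grey. On the called side the values at 20 to 22 kb are 3.38 and 3.30, and on the other side the dense windows climb to 1.75 at 20 to 22 kb while the rest reach 0.935.

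Neighbouring H3K4me3 regions of a dense window were separated by a median of 44 kb (interquartile range 19 to 89 kb, 3124 pairs). In the other kept windows the median was 105 kb over 3042 pairs, a difference that follows from the rule. Pairs less than 12 kb apart made up 14.4% in dense windows and 6.71% elsewhere. The stretch between neighbours in dense windows had an H3K36me3 ratio of 3.84 (3.82 to 3.86) at distances of 12 to under 30 kb, 2.56 (2.56 to 2.57) at 30 to under 100 kb and 1.44 (1.44 to 1.44) at 100 kb or more. Elsewhere the values at these distances were 3.43 (3.40 to 3.46), 2.48 (2.47 to 2.49) and 1.08 (1.08 to 1.09). Over all pairs, the stretches in dense windows were higher at each of these distances.

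The sides on which H3K36me3 was called gave neighbouring regions a direction. Among 1077 neighbouring pairs of dense windows in which each region had exactly 1 called flank, 438 had it on the same side, 350 had it on the sides that face away from each other and 289 on the sides that face each other. Elsewhere the shares were similar, with 44.0% (41.0 to 47.1) against 40.7% (37.7 to 43.7) on the same side and 29.4% (26.7 to 32.3) against 32.5% (29.7 to 35.4) facing away. Pairs that faced away were close together, with a median of 39 kb against 61 kb for pairs with the same side and 53 kb for pairs that faced each other. At 12 to under 30 kb they were 48.1% (41.1 to 55.1) of the 206 pairs in dense windows, and at 100 kb or more they were 26.4% (21.4 to 31.8) of 292. Flanks of regions less than about 22 kb apart overlap, which limits the classes at short distances.

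Stretches between regions that faced away stayed low in H3K36me3 at all distances. In dense windows the ratio there was 0.352 (0.341 to 0.363) at 12 to under 30 kb and 0.569 (0.563 to 0.574) at 100 kb or more. Between regions that faced each other it was 5.98 (5.89 to 6.07) and 2.19 (2.18 to 2.20). Between regions with the same side it was 2.49 (2.43 to 2.54) and 1.49 (1.48 to 1.49). Within these classes dense windows were not always the higher set. At 12 to under 30 kb the value elsewhere was 6.95 (6.78 to 7.12) between regions that faced each other, 2.63 (2.53 to 2.74) with the same side and 0.273 (0.258 to 0.289) facing away. At 100 kb or more the values elsewhere were 1.82 (1.82 to 1.83), 1.11 (1.10 to 1.11) and 0.509 (0.506 to 0.513), each below that of dense windows. The flanks that define the classes lie in these stretches, so the order of the classes near the regions follows from how they were made.

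The window with most H3K4me3 regions lay on chromosome 10 (79000001 to 80000000) and held 32, which together measured 47 kb. It had 5475 H3K4me3 ChIP tags, 1695 WGA input tags, 35305 H3K36me3 ChIP tags and 28846 unamplified input tags. The regions took 41.4% of its H3K4me3 tags, at a pooled ratio of 16.3 (12.2 to 22.3). Its H3K36me3 ratio was 2.70 (2.66 to 2.74), and H3K36me3 covered 48.5% of it in 16 regions. Both flanks were called at 16 of the 32 H3K4me3 regions, 1 flank at 15 and neither at 1. All 10 parts of 100 kb held a region. The next window along (80000001 to 81000000) ranked among the 8 densest as well, with 25 regions, a ratio of 2.65 (2.61 to 2.69) and a cover of 43.5%.

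Of the other windows among the 8 densest, all but 1 were also high in H3K36me3. The chromosome 3 window (88000001 to 89000000) held 25 regions and had 27676 H3K36me3 ChIP and 17902 input tags. Its ratio was 3.41 (3.35 to 3.48), and H3K36me3 covered 58% of its length. Its widest H3K36me3 region measured 260 kb and crossed into the next window (88770001 to 89030000). The chromosome 17 window (24000001 to 25000000, 23 regions) had a ratio of 2.76 (2.71 to 2.81) and a cover of 55.5%, with an H3K36me3 region of 185 kb. A second chromosome 10 locus (127000001 to 128000000, 24 regions) stood at 2.84. The chromosome 7 window (44000001 to 45000000, 26 regions) stood at 2.32 (2.27 to 2.36), and the chromosome 11 window (69000001 to 70000000, 23 regions) at 2.29 (2.24 to 2.33).

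The exception lay on chromosome 13. The window from 21000001 to 22000000 held 26 H3K4me3 regions that took 38.1% of its H3K4me3 tags, with 5413 H3K4me3 ChIP tags, 1032 WGA input tags, 4030 H3K36me3 ChIP tags and 7519 unamplified input tags. Its H3K36me3 ratio was 1.18 (1.14 to 1.23), rank 253 of 285, and H3K36me3 covered 10% of it. Neither flank was called at 14 of its regions, 1 flank at 11 and both at 1. The widest of its H3K36me3 regions measured 20 kb (21955001 to 21975000) at a ratio of 10.5.

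The lowest H3K36me3 ratio of all dense windows belonged to another window of chromosome 13, from 23000001 to 24000000. It held 21 H3K4me3 regions, with 4858 H3K4me3 ChIP tags and 952 WGA input tags. There were 1047 H3K36me3 ChIP tags against 7512 of the unamplified input, a ratio of 0.308 (0.288 to 0.328), and H3K36me3 covered 2% of it in 2 regions. Neither flank was called at 17 of the 21 H3K4me3 regions and 1 flank at 4. Its H3K4me3 regions stood at a ratio of 18.7 (12.8 to 28.5), close to the 18.6 (18.1 to 19.1) of all dense windows together. Those of the window from 21000001 stood at 13.9 (10.5 to 18.9). These ratios come from the tags that chose the regions and are given as description. The 21 regions were crowded, all within 378 kb and 8 of them in 100 kb. The chromosome 19 window from 8000001 held 16 regions within 209 kb at an H3K36me3 ratio of 1.89. Its cover was 17.5%, below the lower quartile of dense windows, 25%. Whether crowding goes with low H3K36me3 was not tested. The window between the chromosome 13 windows (22000001 to 23000000) held 5 regions and was not dense, and its H3K36me3 ratio was 0.180 with no H3K36me3 region.

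**Figure D5:**
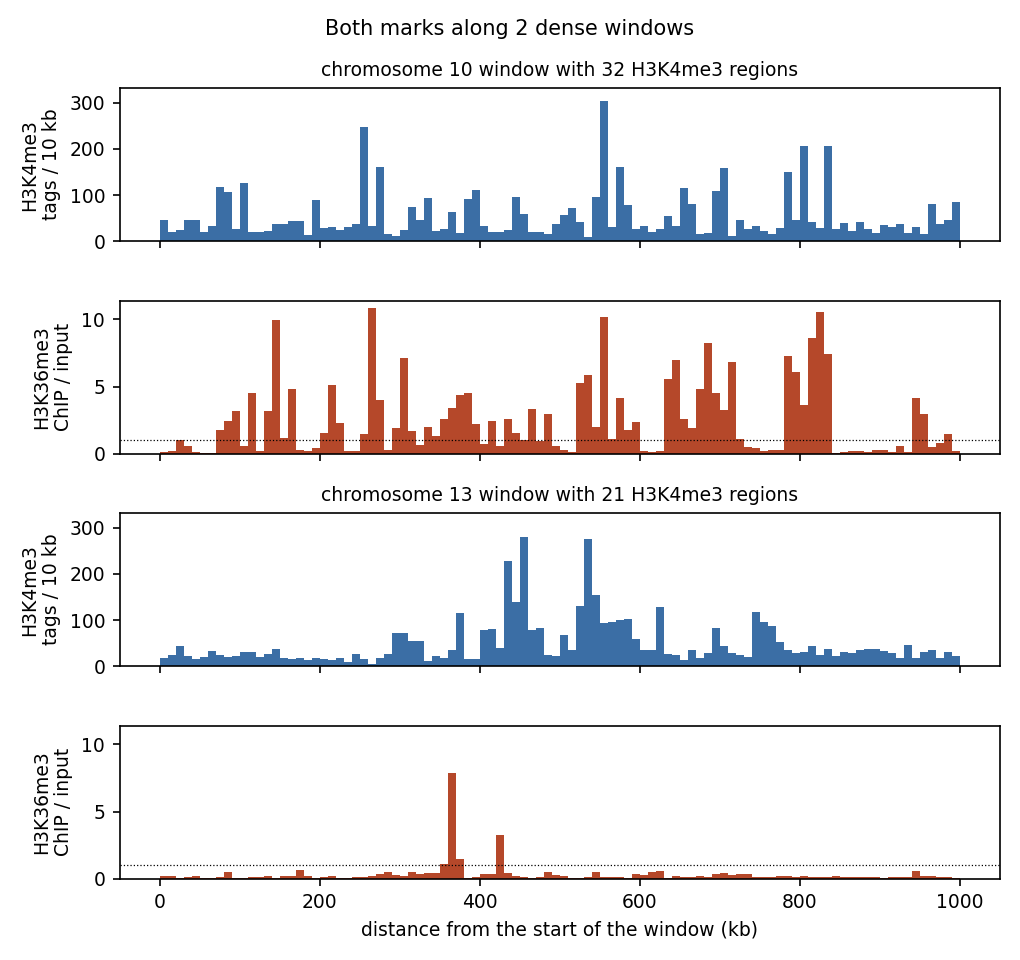
H3K4me3 ChIP tags per 10 kb (blue) and ratio of H3K36me3 ChIP to scaled input with pseudocount 1 (red, dotted line at 1) along the chromosome 10 window with 32 H3K4me3 regions and the chromosome 13 window with 21, by distance from the window's start in kb. H3K36me3 stands above 1 over much of the first window, which it covers to 48.5%, and stays under 1 along nearly all of the second, which it covers to 2%. A value of 1 is the level of the library totals, not of background.

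These 2 windows stood apart from all 15 other dense windows with 20 or more regions. In those 15 the H3K36me3 ratio ran from 1.64 to 3.41 (median 2.65) and the cover from 26.5% to 58% (median 43%), so that neither range reached the chromosome 13 windows. Neither flank was called at 31 of the 47 regions of the 2 windows, or 66.0% (50.7 to 79.1), and at 12.0% (8.81 to 15.9) of the 349 regions of the 15. The H3K4me3 ChIP held 43.8 tags per kb in the regions of the 2 windows and 47.9 in those of the 15. The unamplified input was lower in the 2 windows, at 7512 and 7519 tags against 12733 to 29303, and its part in the flank calls was not tested. They were grouped after their values were seen. Chromosome 13 of the mouse is known for the largest cluster of replication-dependent histone genes, which are short, lack introns and give transcripts that end in a stem-loop instead of a poly(A) tail. In the RefSeq table for the build GRCm38, 54 protein-coding genes on chromosome 13 were matched by a histone symbol. Another 10 are on chromosome 3, and chromosomes 6 and 15 have 2 each. A symbol does not show that a gene is replication-dependent, so these counts may include other histone genes and may miss some. Chromosomes 3 and 15 also held some of the 15 other windows. That table is of another build, so its positions were not set against these windows, and which genes the windows hold was not analysed here. A link between histone genes and the low H3K36me3 was not tested.

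Among the dense windows with the highest H3K36me3 ratios, 2 had few regions for a dense window. The highest of all was the chromosome 5 window from 145000001 to 146000000, with 9 regions. Its 18960 H3K36me3 ChIP and 12082 input tags gave a ratio of 3.47 (3.39 to 3.55). H3K36me3 covered 28.5% of it, below the median of dense windows, and 1 region of 95 kb (145025001 to 145120000) stood at a ratio of 9.15. The chromosome 5 window from 134000001 to 135000000 had 8 regions, a ratio of 3.26 (3.20 to 3.32) and a cover of 41%. The chromosome 8 window from 72000001 to 73000000, with 15 regions, had a ratio of 3.23 (3.15 to 3.31).

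At the low end, 13 dense windows had an H3K36me3 ratio under 1, which with scaling by library totals does not mean below background. After the chromosome 13 window the lowest was on chromosome 11 (20000001 to 21000000), with 10 regions, 4022 H3K36me3 ChIP and 12234 input tags, a ratio of 0.726 (0.700 to 0.752), and a cover of 11%. Next came another chromosome 11 window (58000001 to 59000000, 9 regions, ratio 0.882, 0.855 to 0.910) and a chromosome 3 window (122000001 to 123000000, 8 regions, ratio 0.890, 0.861 to 0.920). Of the 63 dense windows with 15 or more regions, the chromosome 13 window at 23000001 alone was under 1. Neither flank was called at more than 50% of the regions in 6 dense windows. Besides both chromosome 13 windows they lay on chromosome 4 (59000001 to 60000000, 7 of 10 regions), chromosome 6 (128000001 to 129000000, 6 of 10, and 134000001 to 135000000, 5 of 9) and chromosome 9 (3000001 to 4000000, 5 of 8). In 55 dense windows no region was of that class.

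Chromosomes 1 to 19 hold no tag before 3000001, and 4 dense windows began there, on chromosomes 7, 8, 9 and 11. The chromosome 11 window (3000001 to 4000000, 12 regions) held 38006 tags of the unamplified input and 2255 of the WGA input, the most of any dense window in both, and its H3K36me3 ratio was 0.890. The chromosome 9 window (8 regions) held 6027 and 542 tags, with a ratio of 1.03. The windows of chromosomes 7 and 8 stood at 1.88 and 1.78, near the median of all dense windows.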

How the data were processed

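Tag lists of 4 libraries were used. Each line is a placed tag with chromosome, position and strand sign, in the build mm8 per the submitters' processing notes, and the authors deposited no normalised values. The lists are named as unique hits; the sources used here name no aligner, settings or read length. Only the H3K4me3 input held repeats at the same place and sign; 1 of each was kept, which took out 27.5% of its 3464484 nuclear tags. Each tag was moved 75 bp along its strand. Inputs were scaled by library totals (factor 3.027 for H3K4me3). H3K36me3 bins (5 kb) and flanks with at least 10 tags were tested as in the text with the Benjamini-Hochberg method. The bin test was also run on simulated bins, in which unchanged bins lay at the level of library totals. Background in these data lies lower, so no error rate for them follows from that run. Ratios of pooled tags and shares have exact Clopper-Pearson 95% intervals. Named windows were the 8 with most regions (ties by H3K4me3 tags in regions), the 4 highest and 4 lowest in H3K36me3 ratio, and the longest runs. Members, lists and comparisons were chosen with earlier results of these data known. Alternatives varied region calling, grid, input and scaling. Chromosome sequence was not used here. Analyses used Python 3.11.15, NumPy 2.4.6, pandas 2.3.3 and SciPy 1.17.1.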

Additional observations from a re-analysis of the deposited data

Results flagged for a closer look

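Chromosome X was outside the rule, which covered chromosomes 1 to 19, and by the same criteria 7 of its 146 kept windows held 8 or more H3K4me3 regions, where the ChIP stands above its input by construction. The fullest (70000001 to 71000000) held 13 regions and had the highest H3K36me3 ratio of the 7, at 2.20. The others stood at 2.07, 1.57, 1.39, 1.13, 0.904 and 0.878.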

How the results depend on the processing

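No paired analysis was possible because each group holds 1 library. The direction between dense and other kept windows held under each alternative for the H3K36me3 ratio, its cover and the share with both flanks called, and turned for exactly 1 flank. Dense windows, 12.0% of kept windows, became 6.52% with the unamplified input for H3K4me3 (155 windows, of which 154 were among the 285) and 7.74% with 10 regions per window; the other 8 alternatives gave 199 to 304 windows. The H3K36me3 ratio of dense over other kept windows, 2.26, became 2.94 with the WGA input as denominator and 2.32 without tags within 2 kb of an H3K4me3 region. It became 1.85 with the other windows weighted by depth class to the input of the dense ones. With other sets of windows it was 2.27 (30 tags per bin), 2.25 (no gap in merging), 2.26 (gap of 5 bins), 2.24 (unamplified input), 2.25 (repeats kept), 2.24 (moved grid), 2.08 (5000 input tags) and 2.25 (10 regions). H3K36me3 cover of dense windows, 31.9%, became 50.0% with background scaling (21% elsewhere), 22.3% at a ratio of at least 3 and 35.9% with bins of 10 kb. Exactly 1 flank, 57.7% against 58.0% elsewhere, was called at 46.6% against 60.0% with background scaling and at 59.6% against 55.8% with flanks from 1 to 6 kb. Both flanks were called at 50.7% against 34.5% and at 21.1% against 9.28%. The causes were not tested. The few tags of the WGA input limit ratios of single H3K4me3 regions.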
